A study of Mus musculus with 12 samples.

Results

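The genes described here are 10 components of the Notch pathway and of secretory fate choice, namely the receptors Notch1 and Notch2, the ligands Dll1, Dll4 and Jag1, the receptor-modifying proteins Lfng and Adam10, the target gene Hes1, and the fate factors Atoh1 and Gfi1. They were chosen by gene symbol, with earlier results of these data known. All 10 were found among the 18929 genes listed in the deposited count tables. RNA-Seq libraries were made from murine enteroids, which are epithelial cultures that grow from intestinal crypts in a gel and keep stem, absorptive and secretory cells. Crypts came from the jejunum of a villin-Cre control mouse, of a mouse with Hdac1 deleted and of a mouse with Hdac2 deleted, all on a mixed C57BL/6J, 129SV and CD1 background and all carrying Cre under the villin promoter, which is active in intestinal epithelium. Cultures were grown for 5 days in ENR medium, which supplies EGF, Noggin and R-spondin, and 4 libraries were sequenced for each group. HDAC1 and HDAC2 are histone deacetylases, and the comparison asked how loss of either enzyme changed the enteroid transcriptome.

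Notch signalling passes between neighbouring cells. A Delta or Jagged ligand on the surface of 1 cell engages a Notch receptor on the next, ADAM10 and then gamma-secretase cut the receptor, and the freed intracellular domain joins the DNA-binding protein RBPJ and a Mastermind coactivator to switch on repressors of the Hes family. In the crypt, cells with active Notch keep HES1 and become absorptive or remain stem cells. Cells that escape Notch express ATOH1, display Delta ligands and become goblet, Paneth or enteroendocrine cells.

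The methods name 1 mouse of each genotype as the source of crypts, so genotype cannot be told apart from mouse and line, and the p-values measure the spread between libraries, which may be technical. Libraries held between 20693200 and 30658628 counts, so that 3 counts corresponded to between 0.0979 and 0.145 CPM (counts scaled to library size by TMM factors, the unit of all levels here). Hdac1 was at 3.38 to 5.08 CPM in Hdac1-deficient libraries, 68.8 to 78.4 CPM where Hdac2 was deleted and 88.0 to 94.5 CPM in controls. Hdac2 was at 73.2 to 78.8 CPM in Hdac2-deficient libraries, 106.1 to 114.3 CPM where Hdac1 was deleted and 132.1 to 140.2 CPM in controls, so the gene named in each label was lowest there, with Hdac2 reads still counted. All 8 epithelial identity genes examined, among them Epcam, Cdh1 and Vil1, were expressed, and the 16 markers of fibroblasts, endothelium, immune cells, glia and neurons summed to 2.21 to 3.17 CPM over the 8 of them listed in both tables.

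Several of the 10 genes differed from control in each mutant group, all by less than 2-fold. In Hdac1-deficient enteroids, 6 of the 10 (Lfng, Hes1, Adam10, Dll1, Notch2 and Notch1) were lower and 0 were higher (edgeR quasi-likelihood test, adjusted p up to 0.05), where 31.9% of the 14246 genes tested were lower and 32.7% higher. DESeq2 also called 0 of the 10 higher there, and 1 (Jag1) was higher at an unadjusted p under 0.05. In Hdac2-deficient enteroids, 4 (Lfng, Hes1, Notch1 and Dll1) were lower and Jag1 was higher, where 30.9% of the 14007 genes tested were lower and 31.4% higher. Taking both directions, 6 and 5 of the 10 stand beside 64.6% and 62.3% of all genes, so the share of the set that changed was close to or below the background, while its direction leaned to lower levels, most of all without Hdac1. The median absolute log2 fold change of the 10 was 0.20 in both comparisons, against 0.25 and 0.23 over all genes tested. At the 2-fold limit, 0 of the 10 passed, where 10.6% and 8.3% of all genes did, and 0 passed between the mutants, where 5.62% did. Both comparisons use the same 4 control libraries, so their results are not independent of each other. In bulk libraries, fewer cells of a type and less RNA per cell cannot be told apart.

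**Figure D1:**
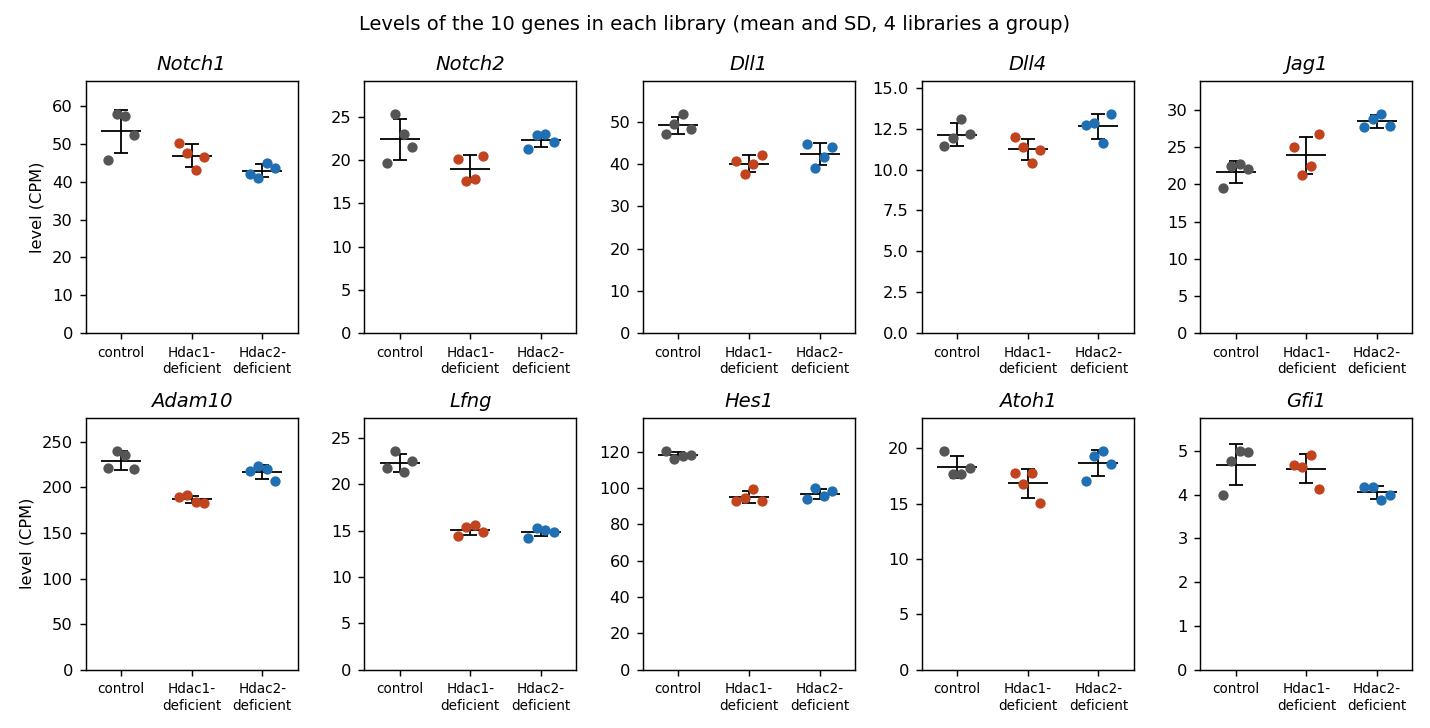
Level of each of the 10 genes in CPM (linear vertical axes starting at 0) in the 12 libraries; each point is 1 library, and the bar with whiskers gives the mean and SD of 4 libraries. Lfng and Hes1 lie lower in every mutant library than in every control library, Jag1 is highest in the Hdac2-deficient libraries, and the groups overlap for Atoh1.

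Expressed per kilobase of exon, so that genes can be ranked, Hes1 led the control libraries at 57.9 ± 0.97 CPM per kb (SD, n = 4), followed by Adam10 at 46.7 ± 2.0. Dll1, at 11.7 ± 0.47 CPM per kb, was the most abundant of the 3 ligands. Lfng at 8.91 ± 0.40 and Atoh1 at 8.64 ± 0.47 CPM per kb overlapped in their library values. Notch1 (3.75 ± 0.40 CPM per kb), Jag1 (3.72 ± 0.25) and Dll4 (3.15 ± 0.18) came next, with Notch1 overlapping Jag1 and Jag1 overlapping Dll4. The lengths count every annotated exon of a gene, 14232 bases for Notch1, so the order of the genes depends on the annotation. Notch2 stood at 2.08 ± 0.22 and Gfi1 was last at 1.47 ± 0.15 CPM per kb. The transcript of the target gene was thus the most abundant of the set per length, and that of GFI1, a zinc finger repressor that acts downstream of ATOH1 to fix the goblet and Paneth choice, the least.

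Notch1 and Notch2 are the receptors on which intestinal crypt progenitors depend. Notch1 (chr2:26457903-26516663, minus strand, GRCm38) measured 45.7, 58.0, 57.5 and 52.4 CPM in control replicates 1 to 4. It measured 50.4, 47.7, 43.1 and 46.6 CPM in Hdac1-deficient replicates 1 to 4, and 42.0, 41.1, 44.9 and 43.7 CPM in the Hdac2-deficient ones. All Hdac2-deficient libraries were below all controls, whereas the Hdac1-deficient libraries overlapped the controls through control replicate 1, the lowest of its group. The log2 fold change was -0.30 (SE 0.07, adjusted p = 0.0012) in Hdac2-deficient enteroids and -0.17 (SE 0.07, adjusted p = 0.042) in Hdac1-deficient ones, and the direct comparison of the mutants did not separate them (0.13, 95% interval -0.01 to 0.27, adjusted p = 0.11). The Notch1 result in Hdac1-deficient enteroids was borderline: leaving out any of 6 of the 8 libraries (control replicates 2, 3 and 4 and Hdac1-deficient replicates 2, 3 and 4) raised the adjusted p to between 0.059 and 0.12, and so did dropping the filter on low counts (0.059), while leaving out control replicate 1 gave -0.24 with an adjusted p of 1.5e-04.

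Notch2 (chr3:98013527-98150361, plus strand) behaved differently between the mutants. Control libraries measured 19.7, 25.4, 23.1 and 21.5 CPM, Hdac1-deficient libraries 20.2, 17.6, 17.8 and 20.5 CPM, and Hdac2-deficient libraries 21.3, 22.9, 22.99 and 22.1 CPM. Every Hdac1-deficient library was below every Hdac2-deficient one, and control replicate 1 lay among the Hdac1-deficient values. Notch2 fell by 0.23 on the log2 scale in Hdac1-deficient enteroids (SE 0.07, adjusted p = 0.012; 0.052 without control replicate 2) and by 0.23 in Hdac1-deficient against Hdac2-deficient ones (SE 0.07, adjusted p = 0.0071). Against control, the Hdac2-deficient estimate was 0.00, with a 95% interval from -0.13 to 0.14. Thus Notch1 fell in Hdac2-deficient enteroids and, as a borderline call, in Hdac1-deficient ones, and Notch2 fell in the Hdac1-deficient group, with the difference between the mutants passing the test for Notch2 and not for Notch1.

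DLL1 and DLL4 are displayed by secretory cells and act together to hold neighbouring stem cells in the Notch-active state, and JAG1 is a ligand of the Jagged class. Dll1 (chr17:15367354-15376872, minus strand) measured 47.2, 49.4, 51.9 and 48.3 CPM in control libraries. It measured 40.6, 37.6, 40.0 and 42.2 CPM in Hdac1-deficient and 44.7, 39.2, 41.6 and 44.1 CPM in Hdac2-deficient libraries. No mutant library reached the lowest control. Dll1 fell by 0.28 on the log2 scale in Hdac1-deficient (SE 0.04, adjusted p = 1.7e-05) and by 0.20 in Hdac2-deficient enteroids (SE 0.05, adjusted p = 6.0e-04), with a difference between the mutants of -0.08 (95% interval -0.18 to 0.02, adjusted p = 0.18). A noncoding gene on the opposite strand, A930024N18Rik, shares 867 exon bases (20.5%) with Dll1, and its own count was 15 to 51 reads per library against 859 to 1564 for Dll1. The library kit marks strand, but whether the counting used it is not given in the sources used here.

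Dll4 (chr2:119325784-119335962, plus strand) showed no call against control in either mutant. Its libraries lay between 11.4 and 13.1 CPM in control, 10.4 and 11.97 CPM without Hdac1, and 11.6 and 13.4 CPM without Hdac2, with all 3 ranges overlapping. The log2 fold changes were -0.10 (95% interval -0.24 to 0.04, adjusted p = 0.21) and 0.07 (-0.07 to 0.21, adjusted p = 0.36). The mutants differed from each other by -0.17 (SE 0.07, adjusted p = 0.039), a call that DESeq2 did not give (adjusted p = 0.070) and that was lost in 6 of 12 fits with 1 library left out, namely those without Hdac1-deficient replicate 2, 3 or 4 or Hdac2-deficient replicate 1, 2 or 4 (adjusted p 0.062 to 0.13). Gm14207, on the opposite strand, shares 214 exon bases (5.56%) with Dll4, and its own count was 62 to 129 reads per library against 240 to 394 for Dll4, with means of 113.8 reads in control, 98.0 without Hdac1 and 70.8 without Hdac2.

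Jag1 (chr2:137081456-137116644, minus strand) was the member of the set that rose. Control libraries measured 19.5, 22.4, 22.7 and 22.04 CPM. Hdac2-deficient libraries measured 27.7, 28.8, 29.5 and 27.9 CPM, all above all controls, and Hdac1-deficient libraries measured 25.1, 21.3, 22.5 and 26.7 CPM, of which replicates 2 and 3 lay within the control range and replicates 1 and 4 between the control and Hdac2-deficient ranges. The rise in Hdac2-deficient enteroids was 0.40 on the log2 scale (SE 0.05, adjusted p = 1.4e-06). In Hdac1-deficient enteroids the estimate was 0.15 (95% interval 0.01 to 0.30, adjusted p = 0.057), and it passed the threshold when Hdac1-deficient replicate 2 (0.21, adjusted p = 0.012) or replicate 3 (0.18, adjusted p = 0.045) was left out. Set directly against the Hdac2-deficient group, Jag1 in the Hdac1-deficient group differed by -0.25 (SE 0.06, adjusted p = 0.0017), and these ranges did not overlap.

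The balance of the Delta ligands was read as a count ratio inside each library, which needs no scaling between libraries. Dll1 counts exceeded Dll4 counts 4.13, 4.15, 3.97 and 3.98 times in control replicates 1 to 4. The ratio was 3.39, 3.31, 3.85 and 3.77 in Hdac1-deficient and 3.51, 3.05, 3.58 and 3.29 in Hdac2-deficient libraries, below the lowest control in all 8. On the log2 scale, the ratio was lower than in control by -0.18 in Hdac1-deficient and by -0.28 in Hdac2-deficient enteroids, each with a two-sided exact permutation p of 0.029, the smallest that 4 against 4 libraries allow, and 0.057 after Benjamini-Hochberg adjustment over 6 ratio tests. Neither therefore passed the adjusted threshold, and the mutants differed by 0.09 (exact permutation p = 0.26). Both genes overlap a gene on the opposite strand, whose part in the ratio was not tested.

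LFNG, Lunatic fringe, is a glycosyltransferase that elongates sugars on the Notch extracellular domain and shifts its preference towards Delta ligands, and its gene showed the largest fold changes of the 10. Lfng (chr5:140607320-140615545, plus strand) measured 21.8, 23.7, 21.3 and 22.5 CPM in control replicates 1 to 4. It measured 14.4, 15.4, 15.6 and 14.8 CPM in Hdac1-deficient and 14.3, 15.3, 15.1 and 14.8 CPM in Hdac2-deficient libraries. The mutant groups covered nearly the same interval, and each of the 8 libraries lay under the lowest control. Lfng fell by 31.7% in Hdac1-deficient enteroids (log2 fold change -0.55, SE 0.06, adjusted p = 4.2e-08) and it fell by 32.9% in Hdac2-deficient ones (-0.58, SE 0.06, adjusted p = 1.3e-08), and the direct difference was 0.02 (95% interval -0.10 to 0.14, adjusted p = 0.78).

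Promoter windows of the 10 genes were looked up in RefSeq (GRCm38.p6, from 250 bases before each start to 50 after it), which gave 11 windows for the 9 genes other than Hes1. They were searched on both strands for the RBPJ core TGGGAA, its longer form GTGGGAA, which contains the shorter one, and CACGCG, a sequence bound by Hes repressors. The Lfng window alone held TGGGAA and GTGGGAA, found in 25.6% and 6.38% of all 32851 promoter windows of this length. CACGCG was present in windows of 6 of the 9 genes (Lfng, Jag1, Dll1, Dll4, Notch2 and Atoh1). Of all windows, 9.27% held it, without matching for base composition. That share counts windows, whereas the 9 genes have 11 windows, so the gene count cannot be set against it, and enrichment was not tested. The 250 bases before the start of Lfng (chr5:140607091-140607340, plus strand) are shown because Lfng fell most and because this was the only window of the set with an RBPJ core, and the capitals mark matches on either strand.
Lfng: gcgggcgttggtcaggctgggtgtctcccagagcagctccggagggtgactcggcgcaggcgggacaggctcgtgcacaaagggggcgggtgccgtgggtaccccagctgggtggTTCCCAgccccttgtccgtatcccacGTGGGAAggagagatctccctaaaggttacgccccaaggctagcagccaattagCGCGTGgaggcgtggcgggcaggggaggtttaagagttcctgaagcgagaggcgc
The capitals are, in order, TGGGAA on the opposite strand, GTGGGAA and CACGCG on the opposite strand. The corresponding stretch of Jag1 (chr2:137116521-137116770, minus strand), the gene that rose, held CACGCG on both strands and no RBPJ core.
Jag1: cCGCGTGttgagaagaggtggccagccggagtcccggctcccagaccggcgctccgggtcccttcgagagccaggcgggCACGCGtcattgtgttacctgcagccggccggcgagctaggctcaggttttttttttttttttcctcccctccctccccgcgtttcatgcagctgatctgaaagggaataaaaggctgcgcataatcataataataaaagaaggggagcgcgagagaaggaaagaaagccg
Such matches describe the letters in the window and are not measurements of binding.

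Adam10 (chr9:70678997-70780229, plus strand) encodes the protease that makes the ligand-dependent cut in the receptor. It measured 221.0, 240.4, 235.4 and 220.8 CPM in control, 189.3, 191.2, 184.2 and 183.0 CPM in Hdac1-deficient and 217.7, 223.4, 219.8 and 206.6 CPM in Hdac2-deficient libraries. The Hdac1-deficient libraries were the lowest 4 of the 12, and the Hdac2-deficient ones overlapped the controls. Adam10 fell by 0.28 on the log2 scale in Hdac1-deficient enteroids (SE 0.03, adjusted p = 5.0e-07), and the direct comparison with Hdac2-deficient enteroids gave -0.21 (SE 0.03, adjusted p = 5.7e-06). The Hdac2-deficient estimate against control was -0.07 (95% interval -0.14 to 0.00, adjusted p = 0.076), and the fits in which it passed included those without control replicate 1 (-0.09, adjusted p = 0.010), without control replicate 4 (-0.09, adjusted p = 0.037), and with all 12 libraries in 1 fit (-0.08, adjusted p = 0.037).

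**Figure D2:**
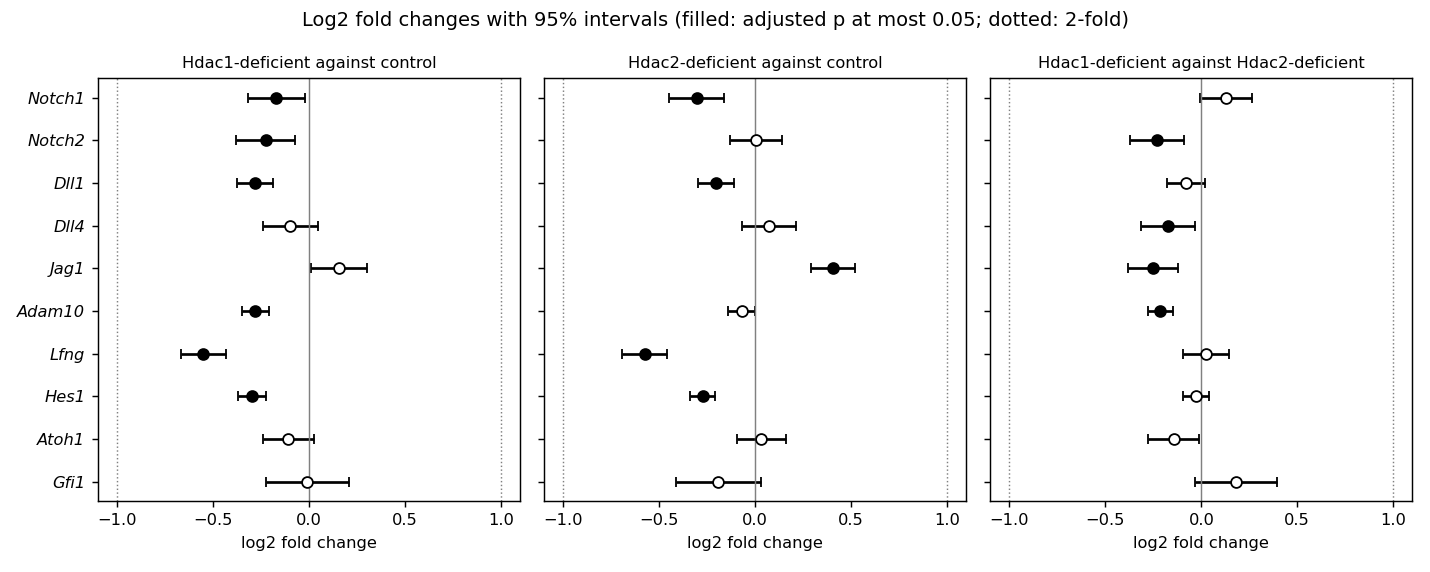
Log2 fold change of the 10 genes (horizontal axis) with 95% intervals in the 3 comparisons; filled circles passed an adjusted p of 0.05 and dotted lines mark 2-fold. No gene reaches 2-fold; Lfng, Hes1 and Dll1 are lower in both mutants and lie near 0 when the mutants are compared with each other, whereas in the direct comparison Adam10, Notch2, Dll4 and Jag1 are lower where Hdac1 was lost.

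HES1 is the repressor through which active Notch silences Atoh1, and ATOH1 is the basic helix-loop-helix factor that goblet, Paneth and enteroendocrine cells require. Hes1 (chr16:30064384-30067796, plus strand) measured 120.6, 115.8, 117.6 and 118.1 CPM in control libraries. It measured 92.6, 94.4, 99.6 and 92.9 CPM in Hdac1-deficient and 93.9, 99.99, 95.3 and 98.2 CPM in Hdac2-deficient libraries. The controls formed the top 4 of the 12 values, with a gap to the highest mutant library that exceeded the range of each group. Hes1 fell by 18.7% (log2 fold change -0.30, SE 0.03, adjusted p = 2.7e-07) in Hdac1-deficient and by 17.3% (-0.27, SE 0.03, adjusted p = 2.1e-07) in Hdac2-deficient enteroids, with a direct difference of -0.03 (95% interval -0.10 to 0.04, adjusted p = 0.54). The summed level of 10 stem cell markers was also lower in all 8 mutant libraries than in every control (4859 to 4981 CPM in controls, 2980 to 3447 CPM without Hdac1 and 2668 to 2902 CPM without Hdac2). Much of that sum was Olfm4, at a mean of 2705 CPM in control, 1519 CPM without Hdac1 and 1147 CPM without Hdac2. The median log2 fold change of the 10 markers was -0.28 without Hdac1 and -0.43 without Hdac2. The part of these markers in the fall of Hes1 was not tested.

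Atoh1 (chr6:64729125-64731245, plus strand) did not pass the test in any comparison. It measured 19.8, 17.7, 17.7 and 18.2 CPM in control, 17.8, 16.8, 17.8 and 15.0 CPM in Hdac1-deficient and 17.0, 19.3, 19.7 and 18.6 CPM in Hdac2-deficient libraries. The 3 groups overlapped. The log2 fold changes against control were -0.11 (95% interval -0.24 to 0.03, adjusted p = 0.15) and 0.03 (-0.09 to 0.16, adjusted p = 0.66). Between the mutants, Hdac1-deficient against Hdac2-deficient, the estimate was -0.14 (95% interval -0.28 to -0.01, adjusted p = 0.073). It passed in 1 of 12 fits with 1 library left out (adjusted p = 0.026). The 250 bases before its start (chr6:64728875-64729124, plus strand) are shown beside those of Lfng because the window held CACGCG 4 times, the most of the set, of which 3 lie before the start and are in capitals.
Atoh1: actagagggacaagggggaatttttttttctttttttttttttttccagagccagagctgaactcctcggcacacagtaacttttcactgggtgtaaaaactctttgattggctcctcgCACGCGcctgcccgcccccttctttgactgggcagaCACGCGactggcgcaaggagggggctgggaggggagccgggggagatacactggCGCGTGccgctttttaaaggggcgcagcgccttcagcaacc

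The ratio of Hes1 to Atoh1 counts within a library was 6.09, 6.55, 6.65 and 6.49 in control replicates 1 to 4. It was 5.22, 5.62, 5.61 and 6.19 in Hdac1-deficient and 5.52, 5.19, 4.83 and 5.28 in Hdac2-deficient libraries. All Hdac2-deficient libraries were below all controls, and Hdac1-deficient replicate 4 lay among the controls. The log2 ratio was lower than in control by -0.31 in Hdac2-deficient (exact permutation p = 0.029, adjusted 0.057) and by -0.19 in Hdac1-deficient enteroids (exact permutation p = 0.057, adjusted 0.086). The mutants differed by 0.12 (exact permutation p = 0.086, adjusted 0.10), so none of the 3 passed after adjustment.

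Gfi1 (chr5:107716657-107726036, minus strand), with 80 to 151 reads per library, was the most weakly covered gene of the set. Its libraries lay between 3.99 and 5.01 CPM in control, 4.13 and 4.92 CPM without Hdac1, and 3.87 and 4.18 CPM without Hdac2. The control and Hdac2-deficient ranges overlapped only through control replicate 1, at 3.99 CPM. The log2 fold changes were -0.01 (95% interval -0.23 to 0.21, adjusted p = 0.95) and -0.19 (-0.41 to 0.03, adjusted p = 0.12), and without control replicate 1 the latter became -0.27 with an adjusted p of 0.037.

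**Figure D3:**
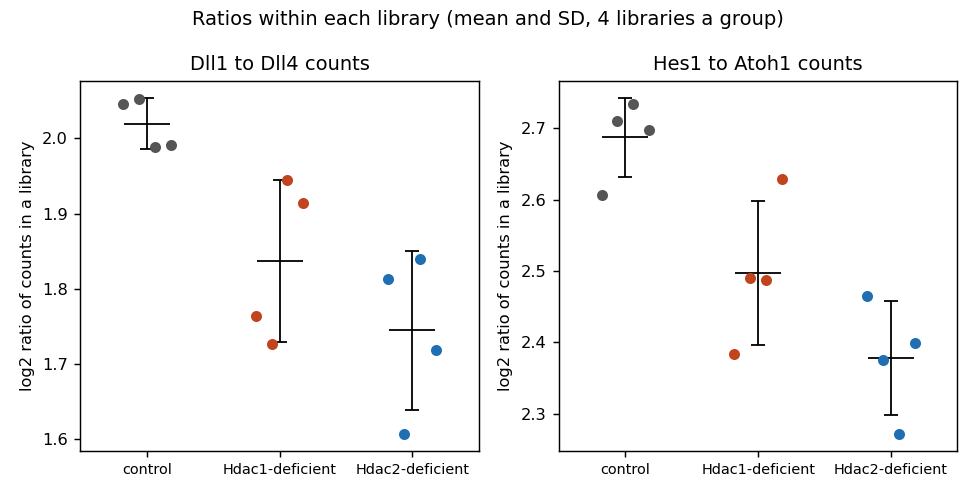
Log2 ratio of Dll1 to Dll4 counts and of Hes1 to Atoh1 counts inside each of the 12 libraries (the vertical axes do not start at 0); points are libraries, bars with whiskers are the mean and SD of 4. The Dll1 to Dll4 ratio is below every control in all 8 mutant libraries, and the Hes1 to Atoh1 ratio in all 4 Hdac2-deficient and 3 of the 4 Hdac1-deficient libraries.

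Compared directly, Hdac1-deficient enteroids had lower Adam10, Jag1, Notch2 and Dll4 than Hdac2-deficient ones, and 0 of the 10 genes were higher by edgeR, by DESeq2 or at an unadjusted p under 0.05, where 23.7% of the 14510 genes tested were lower and 22.3% higher. For 3 of these 4 (Adam10, Jag1 and Notch2) the libraries of the mutants did not overlap in that direction, as for 22.2% of genes. Adam10 and Notch2 fell in the Hdac1-deficient group with no call in the other, Jag1 rose in the Hdac2-deficient group, and Dll4 was called in neither group against control. Against control, the libraries did not overlap for 4 genes in Hdac1-deficient (Lfng, Hes1, Adam10 and Dll1, all lower, as for 30.4% of genes) and for 5 in Hdac2-deficient enteroids (Lfng, Hes1, Dll1 and Notch1 lower, as for 28.4% of genes, and Jag1 higher, as for 27.6%).

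Among the other genes of the pathway, taken from a list of 54, changes went in both directions in both mutants. In Hdac1-deficient enteroids 16 of the 47 tested were higher, 13 lower and 18 did not pass, and in Hdac2-deficient ones 15 of 46 were higher, 12 lower and 19 did not pass. Their median log2 fold changes were -0.03 and -0.02, beside 0.00 over all genes tested in both comparisons. In at least 1 mutant, 4 of them passed the test and the 2-fold limit, 3 of which (Hes2, Maml2 and Dll3) are named by a rule that also asks for an average log2 CPM of 0 or more. Hes2, a Hes family gene, rose in both, from a control level of 1.98 ± 0.24 CPM to 4.08 ± 0.27 CPM without Hdac1 (log2 fold change 1.05, adjusted p = 2.9e-07) and 4.11 ± 0.50 CPM without Hdac2 (1.07, adjusted p = 5.5e-07; SD, n = 4 throughout). Maml2, a Mastermind coactivator, rose in Hdac2-deficient enteroids from 1.96 ± 0.42 to 3.97 ± 0.65 CPM (1.03, adjusted p = 8.1e-06) and stood at 1.501 ± 0.22 CPM in Hdac1-deficient ones (-0.37, adjusted p = 0.080), a difference between the mutants of -1.40 (adjusted p = 7.1e-08). Dll3, a divergent Delta ligand, fell in Hdac2-deficient enteroids from 1.38 ± 0.20 to 0.673 ± 0.12 CPM (-1.01, adjusted p = 4.4e-04). The fourth, Numbl, a relative of the Notch antagonist Numb, was below that level and fell from 1.05 ± 0.071 CPM to 0.587 ± 0.26 CPM without Hdac1 (-0.80, adjusted p = 0.0096) and 0.417 ± 0.10 CPM without Hdac2 (-1.32, adjusted p = 1.0e-04).

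Several further pathway genes are named here after their values were seen, for their place beside the 10. The other receptor with a call, Notch3, moved in opposite directions, from a control level of 3.44 ± 0.23 CPM to 1.77 ± 0.26 CPM without Hdac1 (log2 fold change -0.94, adjusted p = 4.4e-06) and 6.48 ± 0.40 CPM without Hdac2 (0.93, adjusted p = 5.0e-08), with a direct difference of -1.87 (adjusted p = 5.7e-13). Jag2, the second Jagged ligand, fell in Hdac1-deficient enteroids from 37.3 ± 3.0 to 21.3 ± 0.35 CPM (-0.79, adjusted p = 1.3e-10) and was at 38.5 ± 2.0 CPM in Hdac2-deficient ones (0.05, adjusted p = 0.39; direct difference -0.85, adjusted p = 7.0e-13). Receptor and ligand transcripts of the Hdac1-deficient group were thus lower than those of the Hdac2-deficient group for Notch2, Notch3, Jag1 and Jag2, whereas Notch1 and Dll1 had no call between the mutants. Dll4 was lower and Dll3 higher (0.58, adjusted p = 0.040) in the Hdac1-deficient group, both calls that were lost with DESeq2 (adjusted p = 0.070 and 0.076).

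Downstream of the receptor, Rbpj rose slightly in both mutants (log2 fold changes 0.19 and 0.24, adjusted p = 0.0030 and 8.0e-04). Nrarp, a Notch target that restrains the pathway, fell with Hes1 (-0.18 and -0.12, adjusted p = 0.0014 and 0.017), as did Hes6 (-0.22 and -0.24, adjusted p = 7.6e-05 and 1.4e-05), which counters HES1. Hes5, a further target of the Hes family at 0.789 ± 0.12 CPM in control, instead rose in Hdac1-deficient enteroids (0.82, adjusted p = 0.0015), where it was higher than in Hdac2-deficient ones (1.05, adjusted p = 0.0019), and its Hdac2-deficient estimate against control was -0.23 (adjusted p = 0.53). Numb, an endocytic adaptor that antagonises Notch, rose from 63.8 ± 1.7 CPM to 105.3 ± 6.0 CPM without Hdac1 and 88.1 ± 4.1 CPM without Hdac2 (0.74 and 0.48, adjusted p = 5.5e-12 and 5.4e-10), opposite to Numbl. Dtx4, an E3 ligase of the Deltex family, fell from 115.4 ± 4.8 CPM to 72.9 ± 3.2 and 63.9 ± 1.2 CPM (-0.65 and -0.84, adjusted p = 1.8e-11 and 1.3e-14). Of its relatives, Dtx3l rose in both mutants (0.39 and 0.49, adjusted p = 9.8e-07 and 2.6e-08) and Dtx3 in Hdac1-deficient enteroids (0.90, adjusted p = 4.7e-06), with 0.14 (adjusted p = 0.37) in Hdac2-deficient ones. Mib1, the ligase that drives ligand endocytosis, fell in both (-0.26 and -0.23, adjusted p = 1.5e-04 and 5.6e-04), whereas Mib2 (0.21 and 0.34, adjusted p = 2.8e-04 and 4.3e-07) and Neurl1b (0.63 and 0.42, adjusted p = 5.1e-04 and 7.6e-08), of the same function, rose. Rfng, the fringe relative of Lfng, did not follow it and rose in Hdac1-deficient enteroids (0.29, adjusted p = 6.7e-04), with an estimate of -0.01 (adjusted p = 0.90) in Hdac2-deficient ones.

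**Figure D4:**
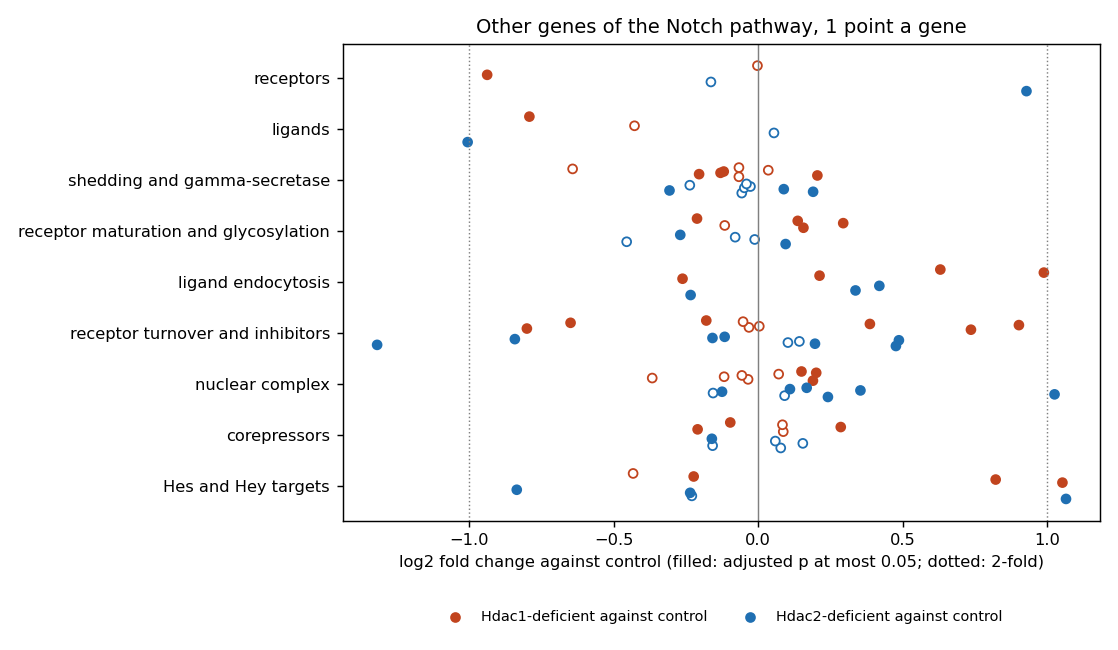
Log2 fold change against control (horizontal axis) of the other Notch pathway genes that were tested, by role; each point is 1 gene, filled where the adjusted p was at most 0.05, and dotted lines mark 2-fold. Points fall on both sides of 0 in most roles, and the receptor Notch3 lies on opposite sides of 0 in the mutants.

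The factors that act after the Notch decision were split as well. Of 21 secretory fate transcription factors tested besides Atoh1 and Gfi1, 6 were higher, 7 lower and 8 did not pass in each mutant. In Hdac2-deficient enteroids, 3 were higher in place of 6 with DESeq2 or without control replicate 2. Creb3l1, a transmembrane factor of the unfolded protein response, was the one named by the rule and fell from 78.4 ± 3.7 CPM to 27.8 ± 3.0 CPM without Hdac1 and 42.1 ± 2.3 CPM without Hdac2 (log2 fold changes -1.48 and -0.89, adjusted p = 4.5e-13 and 2.8e-13). The next were named after their values were seen. Isl1 and Pax6, enteroendocrine factors whose average log2 CPM was below 0, rose over 2-fold in Hdac1-deficient enteroids (1.25 and 1.03, adjusted p = 6.5e-04 and 0.0019) and gave 0.82 and 0.75 in Hdac2-deficient ones (adjusted p = 0.035 and 0.034). The Hdac2-deficient calls were lost with DESeq2 (adjusted p = 0.082 for both) and with a single library left out, namely Hdac2-deficient replicate 1 or 4 or control replicate 1 for Isl1 (adjusted p = 0.16, 0.061 and 0.13), and Hdac2-deficient replicate 2 or control replicate 2 or 3 for Pax6 (0.17, 0.11 and 0.060). Neurog3, which commits cells to the enteroendocrine lineage, fell (-0.54 and -0.89, adjusted p = 2.4e-06 and 2.8e-10), as did Sox4 (-0.66 and -0.57, adjusted p = 1.5e-11 and 4.2e-13) and Foxa2 (-0.64 and -0.57, adjusted p = 3.3e-09 and 4.9e-09), while Foxa1 rose (0.50 and 0.72, adjusted p = 2.0e-08 and 1.3e-11). Spdef, which drives goblet and Paneth maturation, gave -0.03 and -0.08 (adjusted p = 0.67 and 0.23) and, like Atoh1 and Gfi1, had no call.

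Markers of the mature cell types moved alongside these genes. Enterocyte markers, which label the absorptive lineage, were higher for 12 of 12 in both mutants, and their summed level, 10531 to 11071 CPM in controls, was 20148 to 23075 CPM without Hdac1 and 16548 to 18521 CPM without Hdac2. Stem cell markers, the compartment where Hes1 and Notch1 act, were lower for 6 of 10 (1 higher, the receptor gene Tnfrsf19) in Hdac1-deficient and 9 of 10 (1 higher, again Tnfrsf19) in Hdac2-deficient enteroids. Olfm4, a crypt stem cell gene that Notch activates, fell by 0.82 and by 1.23 on the log2 scale (adjusted p = 6.1e-12 and 3.6e-14). None of the 10 stem cell or 12 enterocyte markers was at 0. The part of these cell type markers in the falls of Lfng, Dll1 and Notch1 was likewise not tested.

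Secretory markers, of which the goblet, Paneth and enteroendocrine ones stand downstream of Atoh1, differed by lineage. Goblet markers were higher for 6 and lower for 3 of 12 in Hdac1-deficient and higher for 11 and lower for 0 of 12 in Hdac2-deficient enteroids, and compared directly 10 of 12 were lower in the Hdac1-deficient group. The mucus proteins Clca1 (log2 fold changes 1.22 and 2.13) and Zg16 (1.36 and 1.86) rose in both, and Retnlb went from 0.106 ± 0.021 CPM in control, about the level of 3 counts, to 41.1 ± 4.7 and 67.8 ± 3.0 CPM. Paneth markers were higher for 3 and lower for 2 of the 8 tested in Hdac1-deficient and higher for 6 and lower for 1 in Hdac2-deficient enteroids, led by Mptx2 (1.71 and 2.97) and Lyz1 (1.26 and 1.16), with Habp2 lower (-1.03 and -0.39). Enteroendocrine markers were higher for 11 and lower for 1 of 14 in Hdac1-deficient and higher for 9 and lower for 1 of 13 in Hdac2-deficient enteroids. Among them the hormone genes Gcg (3.76 and 2.95) and Nts (3.82 and 2.20) and the granin Scg2 (2.07 and 2.34) rose, whereas the commitment factor Neurog3, counted above with the transcription factors, fell. The adjusted p of each secretory marker named so far, and of Neurog3, was 2.4e-06 or lower. Fev and Chga are named after their values were seen. The lower enteroendocrine marker in Hdac1-deficient enteroids was Fev (-0.33, adjusted p = 0.020), a call lost in at least 1 alternative run. In Hdac2-deficient enteroids it was Chga (-0.18, adjusted p = 0.0013), which was higher in Hdac1-deficient ones (0.14, adjusted p = 0.0053). By qPCR, the authors reported higher Chga in both mutants. Tuft markers had 1 higher of 7 in Hdac1-deficient and 1 lower of 6 in Hdac2-deficient enteroids. Goblet, Paneth and enteroendocrine markers thus had more genes higher than lower in both mutants. For Paneth markers without Hdac1 the split was 3 against 2 of 8, with a median log2 fold change of 0.02. Over all genes tested in that comparison, 32.7% were higher and 31.9% lower. The 3 goblet markers lower without Hdac1, against 6 higher, were Tff3 (-0.40), Spink4 (-0.38) and Galnt12 (-0.28), named after their values were seen. Whether these marker counts differed from the share over all genes was not tested. Atoh1, Gfi1 and Spdef had no call.

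**Figure D5:**
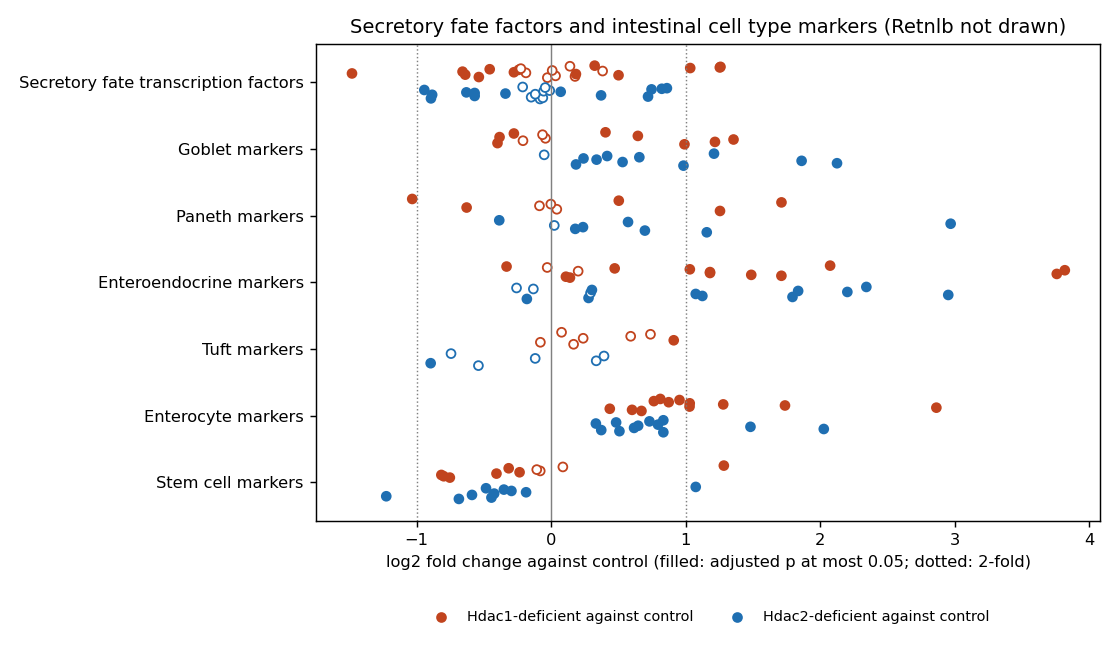
Log2 fold change against control (horizontal axis) of secretory fate factors and cell type markers, 1 point for each gene and mutant, filled where the adjusted p was at most 0.05; Retnlb is not drawn because its control level lies near the limit of 3 counts. All 12 enterocyte markers lie above 0 in both mutants, most stem cell markers lie below 0, and the transcription factors spread on both sides.

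The genes whose level followed Hes1 most closely over the 12 libraries, among 11508 compared, were Sac3d1 (Pearson r 0.992 on log2 CPM), Orc1 (0.987), Rps20 (0.987), Fuz (0.985) and Bmyc (0.984), and within the set it was Lfng (0.967). For Atoh1 the closest were Itgb3bp (0.889), Faap20 (0.858), Tor4a (0.849), Ppp2r1a (0.848) and Pdlim2 (0.838). Hes1 was higher in control than in both mutant groups, with no call between the mutants. Its correlations are a description of that shared pattern. For Atoh1 the 3 groups overlapped without a call, and its correlations are a description only.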

How the data were processed

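RNA-Seq was analysed in 12 libraries, grouped by the genotype and replicate number in their labels. Reads were paired, 100 nucleotides long, from poly(A)-selected RNA and a kit that marks strand. Per the labels, the authors used bcl2fastq 1.8.4 and STAR 2.4.0f1 with GRCm38; the counting program, annotation and strand setting are not given in the sources used here. The deposited counts are whole reads per gene without normalization, in 1 table for each mutant with identical control columns, and each lists genes whose counts sum to 10 or more. Also deposited were the authors' normalized score of each gene and library, a log2 fold change and average log2 CPM, and p-values of DESeq and edgeR for each gene; these hold their own comparisons and were not used.

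Counts were tested with edgeR 4.0.16 (R 4.3.3) by the robust quasi-likelihood F test with TMM factors (0.980 to 1.02) and filterByExpr, with Benjamini-Hochberg adjustment over all genes tested. Each mutant was compared with control in 8 libraries (common biological coefficient of variation 0.0425 for Hdac1 and 0.0384 for Hdac2), and the mutants with each other in 12 (0.0394). The SE is the absolute log2 fold change divided by the square root of F. Ratios were compared by two-sided exact permutation tests. All 10 genes passed the filter. The test was also checked on simulated counts. Positions and exon lengths came from GENCODE M21, which held 18817 (99.4%) of the identifiers. The 10 genes and all lists were chosen with earlier results of these data known. Besides the 10, the text names up to 3 genes from each list that passed an adjusted p of 0.05 and 2-fold in either mutant, taken by the largest change among genes whose average log2 CPM was 0 or more, and the 5 genes most correlated with Hes1 and with Atoh1; others are marked. Alternatives were DESeq2 1.42.0, RLE size factors, no filter, all 12 libraries in 1 fit, the replicate number as a block and each library left out in turn. Intervals cover the spread between libraries, and the limit of 3 counts covers counting error only. Deviations of same-numbered libraries of different groups were weakly correlated, with values given in the last paragraph. Further software was Python 3.11.15, pandas 2.3.3, scipy 1.17.1 and matplotlib 3.10.9.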

Additional observations from a re-analysis of the deposited data

How the results depend on the processing

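Of 420 recalculated log2 fold changes of the 10 genes, 384 kept their direction and their side of an adjusted p of 0.05, and the calls for Lfng, Hes1 and Dll1 in both mutants, Adam10 in Hdac1-deficient and Jag1 and Notch1 in Hdac2-deficient enteroids were kept in every alternative run. Signs changed only for estimates near 0 without a call. Gfi1 in Hdac1-deficient enteroids ranged from -0.084 to 0.039 with 1 library left out, and Notch2 in Hdac2-deficient enteroids ranged from -0.061 to 0.066 and was -0.0032 without the filter on low counts and -0.0059 with all 12 libraries in 1 fit. Fitting all 12 libraries together gave 1 gene higher in Hdac1-deficient enteroids (Jag1) in place of 0. With 1 library left out, the number higher was 0 to 1 in Hdac1-deficient enteroids and 0 to 1 (Notch1, without Hdac1-deficient replicate 3 or control replicate 1) in the comparison of the mutants. The number lower in Hdac1-deficient enteroids, 6 in the main fit, was 4 to 6 with 1 library left out. The 4 came from the fit without control replicate 2. It was 5 without the filter on low counts and 5 with the replicate number as a block. Notch1 in Hdac1-deficient enteroids lost its call without the filter (adjusted p = 0.059). Among secretory fate transcription factors, an alternative chosen after seeing the data, DESeq2 gave 3 higher in place of 6 in Hdac2-deficient enteroids and 3 in place of 5 in the comparison of the mutants, and leaving out 1 library gave 3 to 5 and 3 to 6. The cause was not tested.

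The deviations of same-numbered libraries from their group means correlated at -0.17 to 0.21, with 3 of 12 pairs over 0.1. In 5 of the 12 pairs, this correlation was higher than with any other number of the second group. For replicate 2 of the mutants it was 0.21, against at most -0.02 with other numbers. A batch shared by replicate number was not tested. With the replicate number as a block, Notch1 in Hdac1-deficient enteroids was -0.17 with an adjusted p of 0.065, Adam10 in Hdac2-deficient enteroids was -0.07 with an adjusted p of 0.031, and no other call of the 10 genes changed. Depth limited Gfi1 most, at 80 reads in the shallowest value. Of the 36 groups of 4 library values examined for the 10 genes and the ratios, 0 held a library past Dixon's 95% limit.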
